A study of Mus musculus with 32 samples.

Results

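The 9 genes described here encode transcription factors that set and hold the identity of pancreatic β cells: Pdx1, Nkx6-1, Nkx2-2, Isl1, Pax6, Mafa, Neurod1, Foxa2 and Rfx6. They were taken by name from the 21945 genes of the RNA table and the 21927 genes of the table of ribosome-protected footprints (RPFs), and all 9 were in both tables and passed the filter on low counts in both. The cells were MIN6, a mouse insulinoma line with features of β cells that is usually grown in 25 mM glucose. They were kept for 24 hours in medium with 5.5 or 25 mM glucose and given cycloheximide just before harvest to hold ribosomes in place. There were 8 cultures per glucose concentration, replicates 1 to 4 with libraries made in batch 1 and 5 to 8 in batch 2, and from every culture both RPFs and polyadenylated RNA were sequenced, giving 32 libraries. The labels call the replicates biological, and as cultures of a single tumor-derived line they carry the variation of that line only.

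RPFs are the mRNA fragments that a ribosome shields from nuclease, so their count reflects both how much mRNA there is and how densely ribosomes sit on it, and the ratio of RPFs to RNA is the translation efficiency (TE). Levels below are in CPM, the counts brought to a common library total, after scaling by the trimmed mean of M-values (TMM), and changes are log2 ratios of 25 over 5.5 mM from the quasi-likelihood test of edgeR, which had a term for batch, each with its standard error (SE) and a p-value adjusted by Benjamini-Hochberg over all genes tested. A change was called at an adjusted p under 0.1 in RPFs and TE and under 0.01 in RNA. Levels are compared between libraries and not between genes, since they are not per length.

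These factors act as a network rather than as a line of command. Pdx1, Nkx6-1, Nkx2-2 and Isl1 are homeodomain proteins, Pax6 has a paired domain and a homeodomain, Mafa is a basic leucine zipper protein, Neurod1 a basic helix-loop-helix protein, Foxa2 a forkhead protein and Rfx6 a member of the RFX winged-helix family. Several of them bind the short promoters of the insulin genes and of Iapp, which encodes amylin, and they also bind regulatory DNA of one another. Loss of some of these factors from adult β cells is known to let other islet programs appear.

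To show the kind of DNA these proteins read, the 250 bases before a start site of 4 genes are printed from RefSeq (GRCm38.p6). For Ins1, Iapp and Pax6 that start is the first base of the gene as annotated, while for Rfx6 it lies inside the annotated gene. Ins1 and Iapp are shown as classic targets of the group, and Pax6 and Rfx6 as the members whose RPFs fell. Capitals mark TAAT on either strand (TAAT or ATTA), the core that homeodomain proteins bind, and it had 3 matches before Ins1, 5 before Iapp, 2 before Pax6 (the first of 2 start sites) and 3 before Rfx6.
Ins1, chr19:52264047-52264296, plus strand: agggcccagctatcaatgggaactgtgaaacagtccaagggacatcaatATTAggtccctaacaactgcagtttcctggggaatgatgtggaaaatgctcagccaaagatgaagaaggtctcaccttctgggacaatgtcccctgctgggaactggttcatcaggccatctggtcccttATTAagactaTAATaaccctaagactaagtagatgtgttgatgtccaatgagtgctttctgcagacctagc
Iapp, chr6:142298175-142298424, plus strand: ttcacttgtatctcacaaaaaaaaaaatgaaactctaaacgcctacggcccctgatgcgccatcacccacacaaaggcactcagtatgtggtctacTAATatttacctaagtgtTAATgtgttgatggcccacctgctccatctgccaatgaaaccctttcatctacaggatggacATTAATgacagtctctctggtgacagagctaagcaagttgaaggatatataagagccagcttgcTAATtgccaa
Pax6, chr2:105668646-105668895, plus strand: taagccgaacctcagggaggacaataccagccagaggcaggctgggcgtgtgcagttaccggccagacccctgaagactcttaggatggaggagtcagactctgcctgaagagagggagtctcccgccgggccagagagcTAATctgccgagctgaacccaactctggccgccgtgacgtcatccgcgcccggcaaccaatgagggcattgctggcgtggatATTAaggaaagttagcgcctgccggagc
Rfx6, chr10:51685268-51685517, plus strand: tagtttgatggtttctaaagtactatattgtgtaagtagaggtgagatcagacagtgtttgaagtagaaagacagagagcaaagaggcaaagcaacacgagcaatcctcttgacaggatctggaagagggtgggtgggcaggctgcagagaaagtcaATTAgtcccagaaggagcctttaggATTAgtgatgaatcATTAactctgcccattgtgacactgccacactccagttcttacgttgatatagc
The core was present in 54.9% of 32851 promoter windows of this length, so a match is common. It was found for 5 of the 8 members with a window, namely Nkx2-2, Pax6, Isl1, Foxa2 and Rfx6, and not for Pdx1, Nkx6-1 and Neurod1. The 8 members had 11 start sites, and a member counted if the window of any of its start sites matched. The counts of members here and below are thus not directly comparable with the shares of all windows, which are per single window. The E-box CANNTG, read by helix-loop-helix proteins such as Neurod1, was in the windows of 6 of the 8 members and in 66.2% of all windows, with 2 matches before Ins1 and 3 before Iapp. Matches to GTTGCC, a short motif of RFX proteins, on either strand were found for 1 member, Pax6, 59 bases before its first start site, against 10.4% of all windows. The forkhead sequence TGTTTAC was in none of the members' windows and in 3.17% of all windows, and the Maf sequence TGCTGAC was found for 1 member, Foxa2, against 3.81%, both searched on either strand. These are matches of letters and were not tested for binding.

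The libraries differed in depth, and 5 of them stood apart. In RNA, the libraries of 5.5 mM replicates 2, 4, 6, 7 and 8 held 3014785 to 6907849 counts and had TMM factors of 0.43 to 0.66, against 13795978 to 17542565 counts and factors of 1.103 to 1.493 in the 3 other 5.5 mM libraries and 16423766 to 33623502 counts and factors of 1.29 to 1.46 at 25 mM. RPF totals ranged from 363569 to 7012999 with TMM factors of 0.94 to 1.05, and every batch 2 RPF library held 732164 counts or fewer. A member had at least 49 counts in any RPF library and at least 29 in any RNA library. Of 27 markers of other pancreatic cell types, 9 were at 0 in all 5.5 mM RPF libraries and 8 in all 25 mM RPF libraries, among them the acinar factor Ptf1a, and their summed RPF level was 941 to 1317 CPM in the 5.5 mM group and 1216 to 1932 CPM in the 25 mM group, most of it from the keratin gene Krt7. In RNA the sums were 141 to 626 CPM in the first group and 589 to 837 CPM in the second, and the part of these genes in the members' values was not tested. Of the β cell markers, the insulin gene Ins2 had RPFs of 94036 ± 11847 CPM (SD, n = 8) at 5.5 mM and 88112 ± 16223 CPM (SD, n = 8) at 25 mM. In the same order Slc2a2 had 238 ± 34.1 and 177 ± 43.3 CPM, and Ucn3 had 130 ± 33.4 and 139 ± 26.9 CPM.

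In RPFs, 2 members fell and 2 rose at 25 mM glucose. Rfx6 and Pax6 fell, by 0.48 and 0.38 on the log2 scale, while Nkx6-1 and Pdx1 rose, by 0.57 and 0.27. Calls were common in this comparison, at 15.3% of all 8709 genes tested for lower and 15.6% for higher. The median change of the 9 members was 0.06, beside −0.01 over all genes.

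Rfx6 (ENSMUSG00000019900; chr10:51677760-51730429 in RefSeq GRCm38.p6) acts below Neurog3 in the making of islet cells and keeps insulin secretion going in adult β cells. Its RPF level at 5.5 mM was 291, 272, 220 and 273 CPM in batch 1 and 303, 276, 278 and 253 CPM in batch 2. At 25 mM it was 190, 168, 182 and 186 CPM in batch 1 and 203, 227, 173 and 230 CPM in batch 2. All 25 mM values but those of replicates 6 and 8 lay below every 5.5 mM value, and without TMM scaling all 8 did. The means were 271 ± 25.2 and 195 ± 23.3 CPM (SD, n = 8 each), and the fold was 0.716 (log2 −0.48, SE 0.09, edgeR adjusted p = 0.0002).

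Pax6 (ENSMUSG00000027168; chr2:105668896-105698410) is needed for transcription of the insulin and glucagon genes and for keeping β cells from taking on other islet fates. At 5.5 mM its RPF level was 357, 363, 334 and 396 CPM in batch 1 and 336, 299, 313 and 291 CPM in batch 2. At 25 mM it was 242, 255, 245 and 253 CPM in batch 1 and 233, 295, 301 and 268 CPM in batch 2. The groups were apart in batch 1 and overlapped in batch 2, where replicates 6 and 7 at 25 mM lay within the 5.5 mM range. The fold was 0.768 (log2 −0.38, SE 0.08, edgeR adjusted p = 0.0018).

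Within batches, Rfx6 changed by −0.52 in batch 1 and −0.40 in batch 2, and Pax6 by −0.52 and −0.18. Batch 1 alone gave both calls, with edgeR adjusted p = 0.007 for Rfx6 and 0.0038 for Pax6, and batch 2 alone gave neither, with 0.12 and 0.52. Of all genes, 9.39% were called lower in batch 1 alone and 1.38% in batch 2 alone. Without the 25 mM RPF library of replicate 8, batch 2 alone called Rfx6 (−0.47) and not Pax6 (−0.18), with 10.9% of all genes lower. The library left out held the highest 25 mM value of Rfx6 (230 CPM), and this fit was added after seeing the data. The difference of the Pax6 change between batches was 0.36 (SE 0.16), with an unadjusted p of 0.032 and an edgeR adjusted p of 1.0. Both calls held without each replicate number in turn and without the RPF libraries of the 5 cultures whose RNA had low depth, where Rfx6 changed by −0.51 and Pax6 by −0.42 and 4.72% of all genes were called lower.

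Pdx1 (ENSMUSG00000029644; chr5:147270097-147275848) activates the insulin gene and is required for the pancreas to form. Its RPF level at 5.5 mM was 257, 235, 269 and 256 CPM in batch 1 and 231, 202, 228 and 232 CPM in batch 2. At 25 mM it was 216, 296, 338 and 383 CPM in batch 1 and 314, 306, 263 and 210 CPM in batch 2. At 25 mM, 5 of the 8 values exceeded every 5.5 mM value, while replicates 1 and 8 were among the lowest of all. The fold was 1.21 (log2 0.27, SE 0.10, edgeR adjusted p = 0.059). The call was lost without replicate 2 (0.27), 4 (0.22), 5 (0.25) or 6 (0.23), and without the RPF libraries of the 5 cultures (0.22), and it was made in neither batch alone (0.29 and 0.28). It was made in batch 2 without the 25 mM library of replicate 8 (0.39, edgeR adjusted p = 0.02). The library left out held the lowest 25 mM value of Pdx1 (210 CPM), and this fit was added after seeing the data.

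Nkx6-1 (ENSMUSG00000035187; chr5:101659184-101664711) sets β cell fate during development and represses other islet fates in the adult. Its RPF level was the most variable of the 9 members between libraries. At 5.5 mM it was 614, 337, 397 and 245 CPM in batch 1 and 804, 1038, 422 and 461 CPM in batch 2, and at 25 mM it was 376, 522, 697 and 343 CPM in batch 1 and 1592, 1756, 1141 and 487 CPM in batch 2. Replicates 5, 6 and 7 at 25 mM were the highest of all 16 libraries, and the batch 1 groups overlapped. The fold was 1.48 (log2 0.57, SE 0.23, edgeR adjusted p = 0.075). The call was lost without replicate 2 (0.57), 3 (0.52), 5 (0.51), 6 (0.54) or 7 (0.47), and the change was 0.17 without the RPF libraries of the 5 cultures, with 0.31 in batch 1 and 0.88 in batch 2, neither called. In batch 2 without the 25 mM library of replicate 8, Nkx6-1 was called at 1.15 (SE 0.17, edgeR adjusted p = 2.6e-06). The library left out held the lowest 25 mM value of Nkx6-1 in batch 2 (487 CPM). This fit was added after seeing the data, so it is no independent support for the rise. Of all genes, 11.1% were called higher in batch 1 alone, 2.92% in batch 2 alone, 11.3% in batch 2 without that library and 6.27% without the RPF libraries of the 5 cultures.

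**Figure D1:**
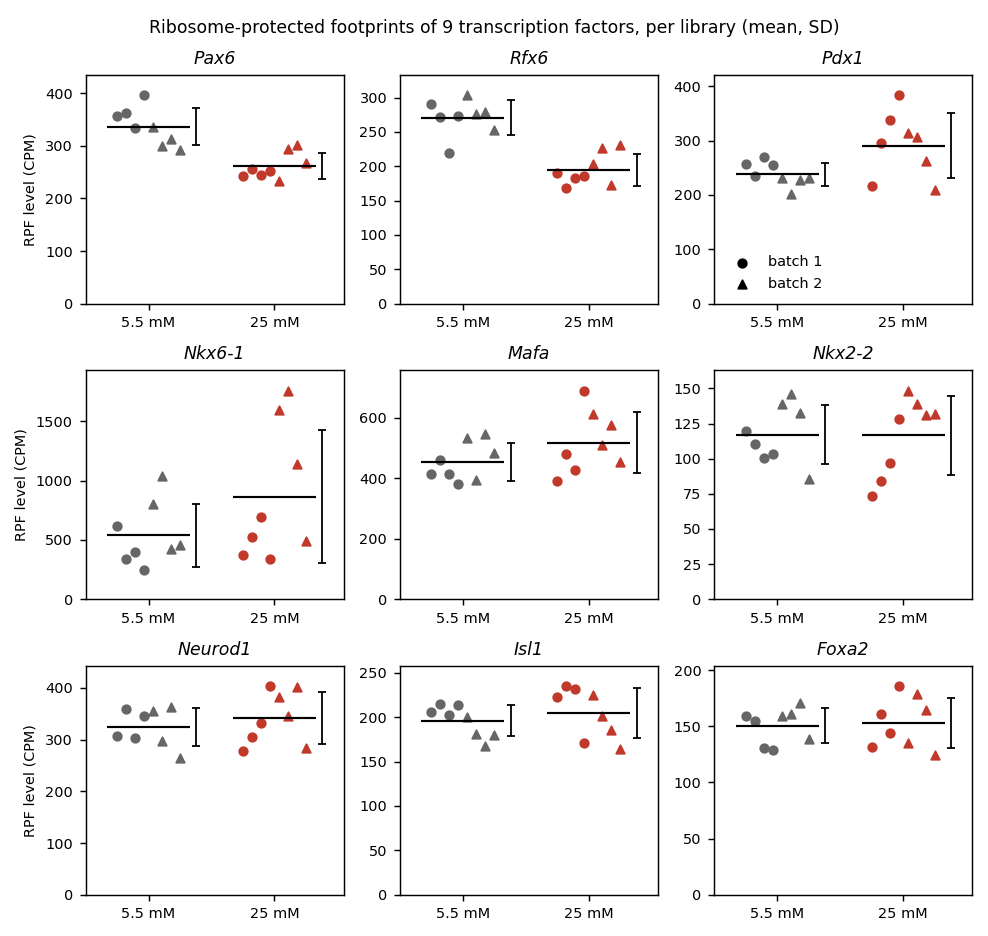
RPF level in CPM (linear axis from 0) of each of the 9 factors in the 8 libraries at 5.5 mM (gray) and the 8 at 25 mM (red), with circles for batch 1 and triangles for batch 2, a line at the mean and a bar for the SD. The 25 mM points of Pax6 and Rfx6 lie mostly below those of 5.5 mM, while for Nkx6-1 only 3 batch 2 libraries at 25 mM stand above all others.

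The 5 remaining members were not called in RPFs. Mafa (chr15:75745501-75748321), a late-acting activator of the insulin gene that marks mature β cells, had 382 to 547 CPM (median 437) at 5.5 mM and 390 to 688 CPM (median 495) at 25 mM. Its change was 0.19 with a 95% interval of −0.03 to 0.41, and it was called without the 25 mM RPF library of replicate 8 (0.23), where 17.7% of all genes were higher and 17% lower. In that library the 9 members took 0.231% of the RPF counts, against 0.328% to 0.384% in the other 3 of batch 2 at 25 mM. The share was 0.221% to 0.270% in batch 1 at 25 mM and 0.236% to 0.310% at 5.5 mM. By this measure those other 3 libraries, and not that of replicate 8, were above the rest. Nkx6-1 alone gave 41.4%, 44.4% and 34.2% of the members' RPF counts in those 3 libraries and 20.7% in that of replicate 8. The measure thus carries the Nkx6-1 levels given above and does not show by itself which libraries were unusual. Neurod1 (chr2:79452637-79456636), which binds E-boxes of the insulin gene with E proteins, had 264 to 364 CPM (median 326) at 5.5 mM and 279 to 403 CPM (median 339) at 25 mM, a change of 0.06 (−0.14 to 0.26). Isl1 (chr13:116298270-116309688), which works with the adaptor Ldb1, had 167 to 215 CPM (median 201) and 164 to 235 CPM (median 212), a change of 0.06 (−0.12 to 0.24). Foxa2 (chr2:148042877-148046969), a pioneer factor that opens chromatin, had 129 to 171 CPM (median 157) and 125 to 186 CPM (median 152), a change of 0.03 (−0.17 to 0.23). Nkx2-2 (chr2:147176485-147195434), which holds down the genes of other islet types, had 85.4 to 146 CPM (median 115) and 73.2 to 148 CPM (median 130), a change of −0.07 (−0.31 to 0.18). For all 5 the groups overlapped.

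In RNA, 3 members fell at 25 mM with all 16 libraries, and each of these changes shrank when the 5 low-depth libraries were left out. The members were Nkx6-1, Neurod1 and Pax6, which fell by 4.31, 3.57 and 2.34 on the log2 scale. Lower calls made up 24.2% of 12365 genes tested and higher calls 16.4%, a split of 2996 and 2033 genes that became 1341 and 2175 when libraries were scaled by their totals. That change of scaling moved the median of all genes from 0.12 to 0.82. With it the 3 members still fell, with changes of −2.96, −2.22 and −1.203, while Pdx1 went from −0.64 to 0.33, Mafa from −0.57 to 0.19 and Nkx2-2 from −0.15 to 0.45, none of them called under either scaling.

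Nkx6-1 RNA was 544, 281 and 1437 CPM in the deep 5.5 mM libraries (replicates 1, 3 and 5). In the 5 low-depth libraries (replicates 2, 4, 6, 7 and 8) it was 4759, 8636, 12507, 13958 and 8116 CPM. At 25 mM it ranged from 266 to 320 CPM with a median of 285. The low-depth libraries were thus far above all others, replicate 5 lay between, and replicate 3 fell within the 25 mM range. The fold change over all 16 libraries was −4.31 on the log2 scale (SE 0.71, edgeR adjusted p = 0.00014).

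Neurod1 RNA was 188, 206 and 648 CPM in the deep libraries and 4056, 7359, 4175, 4155 and 4369 CPM in the low-depth ones. At 25 mM it was 192 to 470 CPM (median 236). The 2 deep libraries of batch 1 were near the low end of the 25 mM range, and the low-depth libraries and replicate 5 were above it. Over all libraries the change was −3.57 (SE 0.68, edgeR adjusted p = 0.00042).

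Pax6 RNA was 639, 441 and 857 CPM in the deep libraries and 1714, 2138, 3530, 3216 and 3567 CPM in the low-depth ones, and 339 to 417 CPM (median 354) at 25 mM. Pax6 was the 1 member whose 25 mM libraries all lay below all 8 at 5.5 mM, with either scaling. For Pax6 this held for the deep libraries taken alone. The share of all genes that separated in this way is not given here, while 24.2% were called lower. The change over all libraries was −2.34 (SE 0.41, edgeR adjusted p = 0.00023).

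The other members showed how far the low-depth libraries differed from the deep ones at the same glucose. The ratio of their median TMM-scaled levels was 20.3 for Neurod1, 15.9 for Nkx6-1 and 5.03 for Pax6, and 0.199 for Rfx6 and 0.461 for Nkx2-2. Rfx6 RNA was 91.0, 126 and 93.2 CPM in the deep libraries, 10.7 to 29.1 CPM in the 5 low-depth ones and 83.3 to 119 CPM at 25 mM, so that the low-depth libraries were the lowest. Without TMM scaling the ratios were 7.45, 5.78, 1.61, 0.0757 and 0.158, in the same order and on the same sides of 1. For Pdx1 the ratio passed from 1.93 to 0.718 and for Isl1 from 1.33 to 0.503, so the direction of those depends on the scaling, while Mafa (0.896 and 0.339) and Foxa2 (0.699 and 0.223) stayed below 1.

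**Figure D2:**
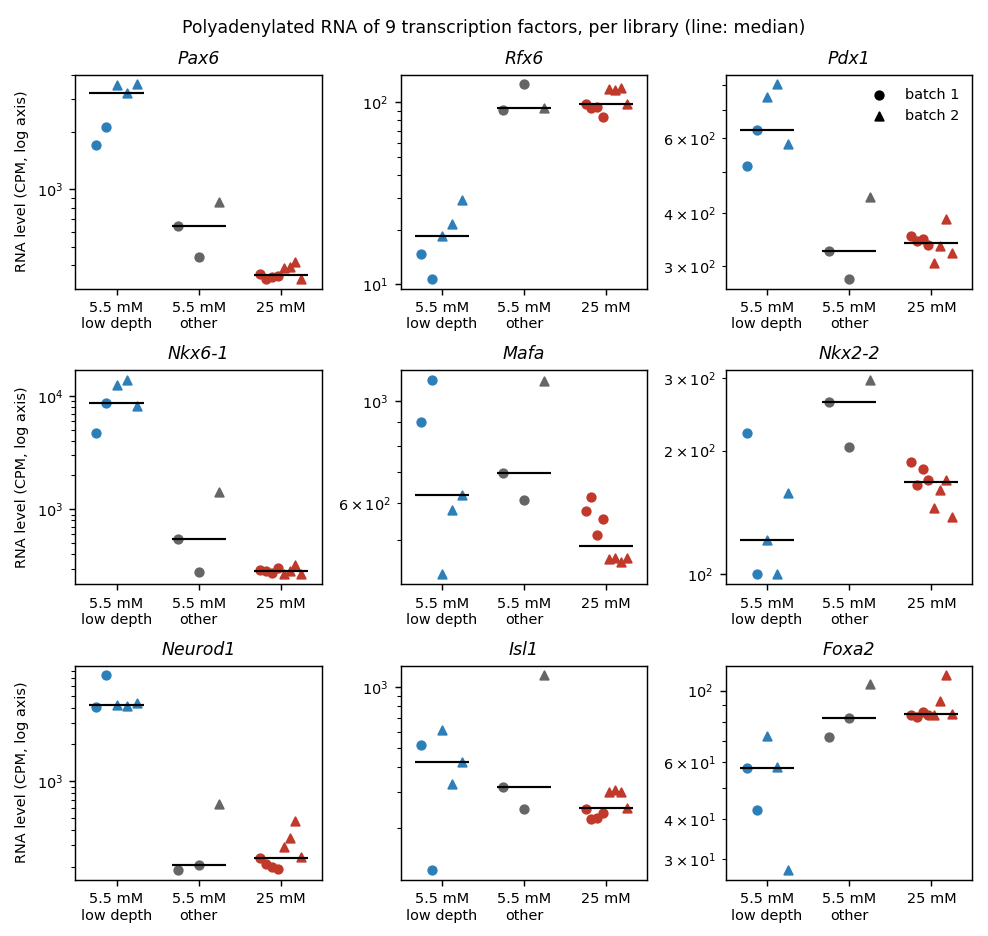
RNA level in CPM on log axes of each of the 9 factors in the 5 low-depth 5.5 mM libraries (blue), the 3 other 5.5 mM libraries (gray) and the 8 libraries at 25 mM (red), with a line at the median, circles for batch 1 and triangles for batch 2. The blue points of Nkx6-1, Neurod1 and Pax6 stand above and those of Rfx6 below all other points.

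Shares of the summed counts of the 9 members do not depend on how libraries are scaled. Nkx6-1 and Neurod1 together made up 69.1% to 79.4% (median 75.1%) of the members' RNA counts in the low-depth libraries. They made up 19.7% to 34.1% in the deep 5.5 mM libraries and 20.9% to 28.8% at 25 mM. In the RPF libraries of the same 5 cultures their share was 25.2% to 44.6% (median 30.0%), and it was 27.2% to 53.1% at 25 mM. In the RPF libraries of 5.5 mM replicates 1, 3 and 5, Nkx6-1 had 22.5%, 16.7% and 26.3% and Neurod1 had 11.3%, 12.8% and 11.6%. The high share of both genes in the low-depth RNA libraries was not seen in the RPF libraries of the same cultures.

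**Figure D3:**
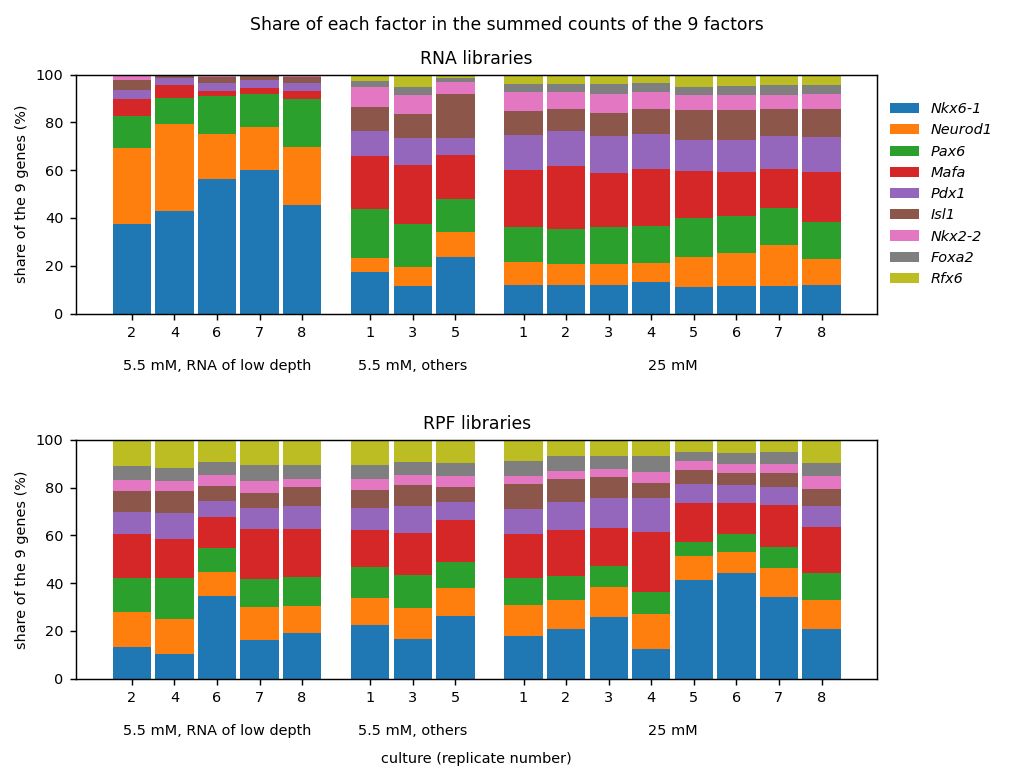
Share in percent of each factor in the summed counts of the 9 factors, per RNA library (top) and RPF library (bottom), with cultures grouped by glucose and by depth of the 5.5 mM RNA library. Nkx6-1 and Neurod1 hold 69.1% to 79.4% in the 5 low-depth RNA libraries and 25.2% to 44.6% in the RPF libraries of the same cultures.

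Without the 5 low-depth libraries, 4 members fell in RNA, where 19.1% of 12918 genes were called lower and 10.4% higher. Pax6 fell by 0.84 (SE 0.14, edgeR adjusted p = 0.0011), Nkx2-2 by 0.62 (SE 0.13, adjusted p = 0.0035), Nkx6-1 by 1.33 (SE 0.29, adjusted p = 0.0038) and Isl1 by 1.03 (SE 0.26, adjusted p = 0.0072). Mafa changed by −0.65 (adjusted p = 0.011), just outside the threshold. Pdx1 (−0.03, 95% interval −0.32 to 0.26), Foxa2 (0.02, −0.25 to 0.28), Rfx6 (−0.05, −0.37 to 0.27) and Neurod1 (−0.34, −0.83 to 0.15) were not called. Nkx2-2 RNA at 25 mM, 138 to 188 CPM, lay below the 263, 204 and 298 CPM of the deep libraries in all 8 cases. Of the 3 deep libraries, replicate 5 had the highest TMM-scaled level of every member but Rfx6, and so of all 4 that fell. Isl1 among them was at 1139 CPM against 317 and 248. Without TMM scaling Nkx2-2 was highest in replicate 1 (364 CPM, against 328 in replicate 5) and Foxa2 in replicate 3 (123 CPM, against 116 in replicate 5). With replicate 5 left out too, 0 members were called by edgeR and 3 had an unadjusted p under 0.05, with Pax6 at −0.63 (adjusted p = 0.012), Nkx6-1 at −0.52, Nkx2-2 at −0.41, Isl1 at −0.28 and Neurod1 at 0.086, and a single batch then supplied both 5.5 mM libraries. At an unadjusted p under 0.05, 5707 of 13118 genes passed in that smaller comparison and 385 (2.93%) were called higher and 401 (3.06%) lower.

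TE combines both layers, and a low-depth RNA library enters it as the denominator. With all 32 libraries TE rose for 6 members and fell for 1, where 31.1% of 8637 genes were called higher and 29.2% lower. The changes were 5.02 for Nkx6-1 (SE 0.72, edgeR adjusted p = 8.2e-06), 3.78 for Neurod1, 2.10 for Pax6, 1.03 for Pdx1, 0.90 for Isl1 and 0.87 for Mafa, and −1.43 for Rfx6. When libraries were scaled by their totals, 3 rose and 2 fell, and Pdx1 (−0.087) and Mafa (−0.037) turned in sign. These fits had no term for culture, though each culture gave both an RNA and an RPF library. With TMM scaling and culture as a block, the same members were called as in the first fit. Nkx6-1 was then at 4.35 (SE 0.94, edgeR adjusted p = 0.0021), and 2305 genes were called higher and 3013 lower.

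The log2 TE of Nkx6-1 was −5.14 to −3.59 in the 5 cultures with low-depth RNA, −0.84 to 0.50 in the 3 other cultures at 5.5 mM and 0.19 to 2.61 at 25 mM. The low-depth cultures were apart from all others, and the other 3 overlapped with 25 mM. For Rfx6 the log2 TE was 3.10 to 4.61, 0.80 to 1.70 and 0.53 to 1.22 in the same groups, so that the low-depth cultures were the highest.

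Leaving out those 5 RNA libraries and the 25 mM RPF library of replicate 8 made the changes smaller for Nkx6-1, Neurod1, Pax6, Pdx1 and Rfx6. TE then rose for Nkx6-1 (2.06, SE 0.39, edgeR adjusted p = 0.0005), Isl1 (1.17, SE 0.25), Mafa (0.93, SE 0.21), Nkx2-2 (0.62, SE 0.20), Pax6 (0.50, SE 0.16), Neurod1 (0.50, SE 0.23) and Pdx1 (0.40, SE 0.17). It fell for Rfx6 (−0.42, SE 0.16), and Foxa2 was not called (0.10, 95% interval −0.21 to 0.42). Beside these 7 higher and 1 lower of 9 members, 26.2% of 9165 genes were called higher and 27.4% lower. In batch 2 at 25 mM, the RPF library left out held the lowest level of Nkx6-1, Mafa, Pdx1, Isl1, Neurod1 and Foxa2. It held the highest of Rfx6, and neither for Pax6 and Nkx2-2. Its loss thus raises the 25 mM TE of the first group and lowers that of Rfx6. How much each exclusion adds is not given here. Most of the members' calls in this fit also depended on the 5.5 mM RNA library of replicate 5. Without it too, TE rose for Nkx6-1 (1.23, SE 0.38, edgeR adjusted p = 0.031), Mafa (0.47, SE 0.19) and Isl1 (0.40, SE 0.16), where 13.3% of 9167 genes were called higher and 13.2% lower. Nkx2-2 (0.37), Pax6 (0.27), Pdx1 (0.16), Neurod1 (0.04) and Rfx6 (−0.25) were then not called. The log2 TE of Isl1 was −2.50 in the culture of replicate 5, against −0.62 and −0.29 in those of replicates 1 and 3 and −0.69 to 0.09 at 25 mM. That of Neurod1 was −0.87 in replicate 5, against 0.71 and 0.55 in replicates 1 and 3 and −0.23 to 1.06 at 25 mM.

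**Figure D4:**
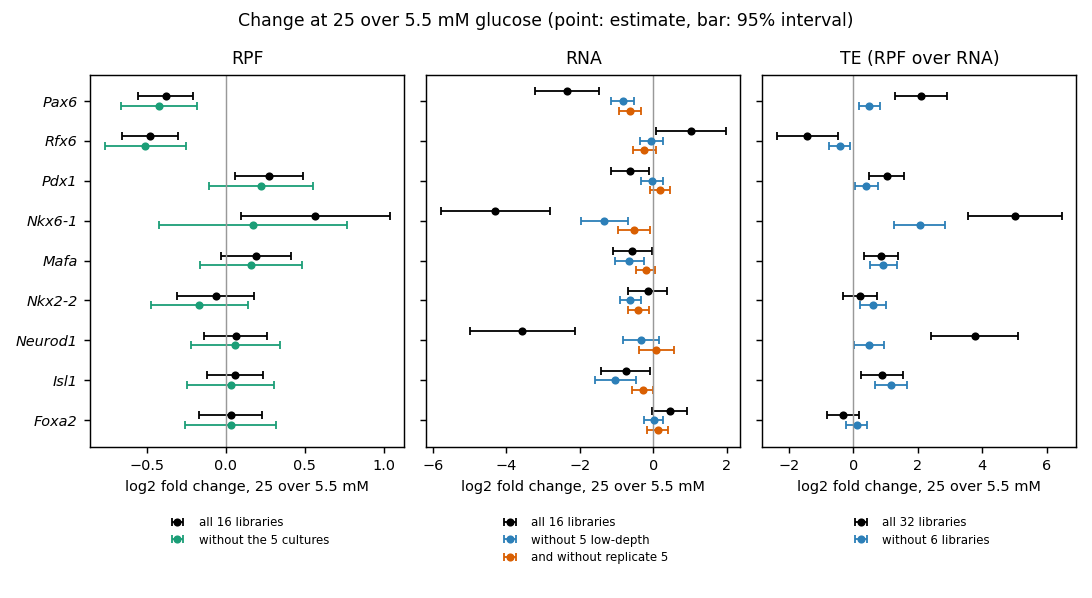
Log2 fold change at 25 over 5.5 mM of each factor in RPFs, RNA and TE (points: estimates, bars: 95% intervals), with all libraries (black) and with libraries left out as the legends name them, on separate axes per panel. The RPF changes lie between −0.48 and 0.57 with all libraries, while the RNA change of Nkx6-1 goes from −4.31 to −1.33 to −0.52 as libraries are left out.

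The members' neighbors in the network were counted from lists written with earlier results of these data known, and each count stands against the share called over all genes: 15.6% higher and 15.3% lower in RPFs, 16.4% and 24.2% in RNA, and 31.1% and 29.2% in TE. With the libraries in brackets left out, these shares were 6.27% and 4.72% in RPFs (5 cultures), 10.4% and 19.1% in RNA (5 libraries) and 26.2% and 27.4% in TE (6 libraries). Of 34 other islet transcription factors, 20 were tested in RPFs, and 1 rose and 3 fell (median −0.14). Without the RPF libraries of the 5 cultures, 2 rose and 1 fell of 21 (median −0.08). Hopx, an atypical homeodomain protein, rose by 1.06, from 16.3 ± 6.27 to 36.3 ± 13.9 CPM (SD, n = 8 each). Myt1, a zinc finger factor of endocrine differentiation, fell by 0.66, from 313 ± 37.7 to 200.2 ± 53.8 CPM. Mlxipl, which encodes the glucose-responsive factor ChREBP, fell by 0.44, and Tshz1 by 0.29. Neurog3, the factor that starts the endocrine program, had 0 RPF counts and 1 RNA count over all libraries. In RNA 4 rose and 6 fell of 24 tested (3 and 7 of 26 without the 5 libraries), and in TE 7 rose and 6 fell of 20.

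Of the cofactors and dimer partners, which include the Id proteins that sequester the partners of Neurod1, the co-repressors of the Tle family and histone-modifying enzymes, 28 were tested in RPFs. Of them 2 rose and 11 fell, where 15.6% and 15.3% of all genes did, with a median of −0.24 beside −0.01 over all genes, and 1 rose and 3 fell of 31 without the RPF libraries of the 5 cultures. Id1 rose by 1.41 (SE 0.21), from 43.3 ± 8.08 to 111 ± 47.7 CPM (SD, n = 8 each). Kmt2c, a histone methyltransferase, fell by 0.47, the co-repressor Tle3 by 0.43 and the acetyltransferase Ep300 by 0.36. In RNA 2 rose and 13 fell of 31 (16.4% and 24.2% of all genes), and 1 and 8 without the 5 libraries. In TE 12 rose and 5 fell of 28 (31.1% and 29.2% of all genes), and 10 and 11 of 31 without the 6 libraries.

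Of the genes that these factors are known to activate, 18 were tested in RPFs, and 3 rose and 6 fell (median −0.04). Without the RPF libraries of the 5 cultures, 2 rose and 2 fell of 18. Iapp, whose promoter is printed above, rose by 0.72 (SE 0.12), from 9265 ± 1522 to 15293 ± 3042 CPM (SD, n = 8 each), and Pcsk1, a convertase that cuts proinsulin, rose by 0.59. Pcx, an enzyme of pyruvate metabolism, fell by 0.65, and Sytl4, a granule docking protein, by 0.57. Ins1 was not called, with a change of 0.01 (SE 0.12). In RNA 2 rose and 4 fell of 19 (3 and 4 without the 5 libraries), and in TE 5 rose and 3 fell of 18 (6 and 5 without the 6 libraries).

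Of 27 markers of other pancreatic cell types, 6 were tested in RPFs and 4 rose, and 3 of 6 rose without the RPF libraries of the 5 cultures. Spp1, a duct and matrix protein, rose by 1.78, from 15.9 ± 5.32 to 61.6 ± 22.1 CPM (SD, n = 8 each), and Gcg, which encodes glucagon, rose by 1.23, from 102.1 ± 41.5 to 245 ± 90.1 CPM. The duct keratins Krt19 and Krt7 rose by 0.36 and 0.26. In RNA 3 of 9 rose, and 4 of 12 without the 5 libraries. In TE 3 of 6 fell, and without the 6 libraries 1 rose and 1 fell. Of 12 progenitor and dedifferentiation markers, 4 were tested in RPFs: Prom1 rose by 0.59 and Myc, a growth factor-responsive transcription factor, fell by 0.84. In RPFs without the 5 cultures 1 rose and 1 fell of 5. In RNA 2 rose and 1 fell of 7, and in TE 1 rose and 2 fell of 4.

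For the 4 members called in RPFs, the genes with the most similar profile were sought among all 8709 tested, by the root mean square (RMS) difference of centered log2 CPM over the 16 RPF libraries. For Rfx6 these were Ep300 (0.11), Polr2a (0.11) and Clasp1 (0.12). For Pax6 they were Khsrp (0.13), Ctnnb1 (0.14) and Ctnna1 (0.14), and for Pdx1 Atp2a3 (0.13), Tagln2 (0.15) and Copg1 (0.15). No gene came as near to Nkx6-1, whose closest were Agt (0.50), Neurl1a (0.51) and Map3k11 (0.54). The libraries, their depth and their batches are shared by all genes in this measure, so it describes likeness of profile only.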

How the data were processed

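MIN6 cells at 5.5 or 25 mM glucose gave 16 RPF and 16 polyadenylated RNA libraries. The authors deposited raw counts per gene, made per their methods with the XPRESSyourself pipeline on the mouse genome of Ensembl release 102, with ribosomal RNA and PCR duplicates removed and the longest transcript of a protein-coding gene counted over its exons or its truncated coding sequence. Which of these served which library type is not given in the sources used here. Groups, batches and replicate numbers came from the labels, and 21826 of 21945 identifiers had a symbol.

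Scaling was by TMM, separately for RNA and RPFs, genes were filtered with filterByExpr, and tests were made with edgeR 4.0.16 (limma 3.58.1, DESeq2 1.42.0, R 4.3.3). RNA and RPF models had a batch term, and the TE model, over both kinds of library, tested whether glucose changed RPFs and RNA differently. The TE of a culture was log2 RPF CPM less log2 RNA CPM, each with a pseudocount of 0.5. Levels are TMM-scaled CPM. Intervals (95%) use the SE from the F statistic and the moderated degrees of freedom. Totals ranged from 363569 to 33623502 counts per library, and precision follows them. The tests were checked on simulated counts. Sequences were read with Python 3.11.15 and figures drawn with matplotlib 3.10.9.

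All 9 members were named in every layer, and of each other list up to 4 called genes with the smallest p in RPFs, with the counts of the list, and for each member called in RPFs the 3 genes most like it. Ins1, Ins2, Slc2a2, Ucn3, Krt7 in the sum of markers and genes at 0 were named as markers or for low counts. The members and lists were chosen with earlier results of these data known. Alternatives were other scalings, no filter, a fit blocked on replicate number (on culture in TE), no batch term, single batches and each replicate left out. Others were DESeq2, limma on TE per culture, an RNA threshold of 0.1, and the libraries named above left out. Leaving out 5.5 mM RNA replicate 5 in RNA or in TE, library size scaling without the 5 libraries, the interaction of batch and glucose, and batch 2 without the 25 mM RPF library of replicate 8 were added after seeing the data. The study's proteomic, polysome and islet data are not analysed here.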

Additional observations from a re-analysis of the deposited data

Results flagged for a closer look

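Foxa2 RNA at 25 mM had 1 library far from the others: replicate 7, at 112 CPM, with the next highest at 93.1 CPM. The gap was 0.647 of the range of the 8 libraries, above Dixon's 95% critical value for 8 samples. Of 36 groups tested this was the only one past its critical value, and chance alone gives about 1 in 20.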

How the results depend on the processing

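Pax6 and Rfx6 remained called lower in RPFs under every alternative but batch 2 alone, where 0 members were lower and 0 higher, and batch 2 without the 25 mM RPF library of replicate 8, where 1 was lower and 2 (Pdx1 and Nkx6-1) were higher. The count of members higher in RPFs, 2, became 1 with no batch term and with DESeq2's Wald test. Those fits called 1217 and 1363 of 8709 genes higher. The count became 0 in batch 1 alone and without the RPF libraries of the 5 cultures, and 0 to 2 as each replicate was left out. The 3 members lower in RNA became 6 with DESeq2's Wald test, where 3881 of 12365 genes were called lower and 2787 higher. At a threshold of 0.1 they became 6 with 2 higher, and 7805 of the 12365 genes had an unadjusted edgeR p under 0.05. They became 0 in batch 1 alone (edgeR, 0 of 12470 genes called, 3527 at an unadjusted p under 0.05). They were also 0 without the 5 low-depth libraries and 5.5 mM replicate 5. Neurod1 turned to 0.086 there, against −3.57 with all libraries and −3.75 without replicate 5. In TE, 6 higher and 1 lower became 3 and 2 with library size scaling, where Pdx1 was −0.087 and Mafa −0.037, 2 and 0 in batch 1 alone, 7 and 1 without the 5 RNA libraries and the 25 mM RPF library of replicate 8, and 3 and 0 when 5.5 mM RNA replicate 5 was left out too (edgeR, 1206 genes called lower, 3099 at an unadjusted p under 0.05). The cause of these changes was not tested.

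The replicate numbers were not taken to pair the cultures, since the deviations of same-numbered libraries at 5.5 and 25 mM correlated at −0.21 to 0.22 in RNA and, in RPFs, at 0.15 to 0.48 in batch 1 and 0.009 to 0.077 in batch 2. The RNA correlations include the 5 low-depth libraries and so cannot settle the pairing, and the RPF correlations were all positive. With the replicate number as a block 2 members rose and 2 fell in RPFs, and 2 fell in RNA, where Neurod1 was −2.78 and not called. In RPFs the block gave Nkx6-1 a change of 0.56 (SE 0.15, edgeR adjusted p = 0.0061), against 0.57 (SE 0.23, edgeR adjusted p = 0.075) without it. The block moved the lower calls of all genes in RNA from 2996 to 1906. In RPFs it moved the calls from 1358 higher and 1335 lower to 1500 and 1537.

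Over all genes, library size scaling moved the TE calls from 2688 higher and 2525 lower to 1143 and 4336, batch 1 alone to 753 and 22, and leaving out the 6 libraries and 5.5 mM RNA replicate 5 to 1223 and 1206. RPF calls went from 1358 and 1335 to 197 and 93 in batch 2 alone, 788 and 758 in batch 2 without the 25 mM RPF library of replicate 8, and 610 and 459 without the RPF libraries of the 5 cultures. As each replicate was left out, RNA calls ranged from 1024 to 2723 higher and 2357 to 3145 lower, and RPF calls from 979 to 1514 higher and 872 to 1583 lower. No RPF library of batch 2 held more than 732164 counts.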
